A study of Mus musculus with 18 samples.

Results

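The genes described here are 7 DNA repair genes that act on the uracil lesions of somatic hypermutation: Ung, Apex1, Apex2, Msh6, Pms2, Exo1 and Polh. They were chosen by name, and each has 1 row in both tables of 30452 genes, so all 7 of 7 were found. All 7 also passed the filter on low values, in a set of 13429 genes tested at 12 h and 12783 at 24 h. Messenger RNA was sequenced from mouse germinal centre B cells of the popliteal lymph node, sorted as light zone cells by high CD83 and low CXCR4. All donor B cells carried the B1-8hi receptor, which binds the hapten NP, and the C57BL/6 hosts had been primed with ovalbumin 2 weeks before the transfer. The transferred mixture held 15% DECP cells, which are Ly75+/+ and CD45.1, and 85% DECN cells, which are Ly75-/- and CD45.1/2. Ly75 encodes DEC205, an endocytic receptor. Hosts were immunised with NP-OVA and 6 days later received an antibody to DEC205 fused to ovalbumin. The groups were DECP cells at 12 h (n = 3) and DECN cells at 12 h (n = 3), then DECP cells at 24 h from hosts given rapamycin at 2.5 mg/kg along with the antibody (n = 4), DECP cells at 24 h (n = 4) and DECN cells at 24 h (n = 4). Rapamycin inhibits the kinase complex mTORC1. Both donor types shared a host that received the antibody, so no group came from a host without it.

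Values are TPM, a level per transcript length scaled to a fixed sum, and the depth of single libraries is unknown. The labels do not tie libraries to animals, so the p-values rest on variation among libraries that could be technical. In these bulk samples fewer cells of a type and less RNA per cell cannot be told apart. Ly75 ranged between 26.0 and 39.6 TPM in DECP cells at 12 h, against 8.53 to 10.1 TPM in DECN cells, a gap of 1.68 on the log2 scale (two-sided exact permutation p = 0.1, the smallest that this size allows), and DECN cells were thus not at 0 for a gene labelled as knocked out. All 10 germinal centre markers were detected in every group, and their summed level was 4039 to 4692 TPM with rapamycin, 2813 to 3512 TPM in DECP cells and 4492 to 5233 TPM in DECN cells at 24 h. The summed level of 8 macrophage markers was 652 to 800 TPM in DECP cells and 1230 to 1631 TPM in DECN cells at 12 h, and 598 to 1188 TPM with rapamycin, 407 to 615 TPM in DECP cells and 1027 to 1128 TPM in DECN cells at 24 h. Apoe made up nearly all of it. Among the others, Lyz2 reached 10.4 TPM in DECP cells and 10.3 TPM in DECN cells at 12 h, and 10.2 TPM with rapamycin. In DECN cells at 24 h C1qc reached 6.05 TPM and Adgre1 4.73 TPM. Mertk stayed at or below 2.38 TPM, C1qb at or below 2.1 TPM, Csf1r at or below 1.54 TPM and C1qa at or below 0.925 TPM in every library. The summed level of 7 T cell markers was 170 to 181 TPM in DECP cells and 211 to 241 TPM in DECN cells at 12 h, and 153 to 171 TPM with rapamycin, 109 to 136 TPM in DECP cells and 139 to 188 TPM in DECN cells at 24 h. Lck made up most of the T cell sum at 12 h, with 146 to 158 TPM in DECP cells and 181 to 218 TPM in DECN cells. Cd3d went against the sum at 24 h, with 34.7 to 54.2 TPM in DECP cells and 12.7 to 17.6 TPM in DECN cells. For 6 plasma cell markers the sum, mostly Jchain, was 453 to 723 TPM in DECP cells and 660 to 747 TPM in DECN cells at 12 h, and 452 to 786 TPM with rapamycin, 832 to 1161 TPM in DECP cells and 706 to 908 TPM in DECN cells at 24 h. The rapamycin-treated and untreated DECP libraries did not overlap in the sums of the germinal centre, T cell or plasma cell markers. The part of these marker differences in the results below was not tested.

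Somatic hypermutation starts when cytosine in immunoglobulin genes is converted to uracil. In the base excision branch, uracil DNA glycosylase (Ung) removes the uracil and an apurinic endonuclease (Apex1 or Apex2) nicks the site left behind. In the mismatch branch, the MutS-alpha complex, of which Msh6 is a subunit, recognises the mismatch, MutL-alpha, of which Pms2 is a subunit, can nick the strand, and the exonuclease Exo1 opens a gap that DNA polymerase eta (Polh) fills with errors at A and T bases.

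Promoter windows of 5 of the 7 genes were in RefSeq (build GRCm38.p6), each with 250 bases before and 50 after the transcript start. Those of Apex1 and Ung are shown, since they act one after the other in base excision and differed in the motifs their windows hold. The capitals mark CACGTG, the E-box. The Apex1 window lies at chr14:50924699-50924998 on the forward strand and the Ung window at chr5:114130185-114130484 on the forward strand.
Apex1: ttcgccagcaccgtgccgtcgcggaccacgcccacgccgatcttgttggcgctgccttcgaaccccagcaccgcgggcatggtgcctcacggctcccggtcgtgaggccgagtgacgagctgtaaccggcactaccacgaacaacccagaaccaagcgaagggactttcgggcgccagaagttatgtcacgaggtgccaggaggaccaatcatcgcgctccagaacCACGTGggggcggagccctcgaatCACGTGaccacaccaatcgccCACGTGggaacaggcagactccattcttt
Ung: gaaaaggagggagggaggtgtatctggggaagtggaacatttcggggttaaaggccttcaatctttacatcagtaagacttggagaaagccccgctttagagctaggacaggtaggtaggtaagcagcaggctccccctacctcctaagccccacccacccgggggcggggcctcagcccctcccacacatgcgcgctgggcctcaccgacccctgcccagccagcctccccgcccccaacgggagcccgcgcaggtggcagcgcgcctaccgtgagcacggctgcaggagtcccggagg

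The Apex1 window holds 3 E-boxes, whose first bases lie at -24, 1 and 22 from the start, and 29 of all 32851 windows (0.0883%) hold at least 3. At least 1 E-box is found in 7.15% of windows, and the windows of Ung, Msh6, Polh and Pms2 hold 0. The E2F motif, searched as TTTCCCGC or TTTGGCGC, occurs once in the Msh6 window, in 0 of the other 4, and in 1.56% of all windows. CCAAT boxes numbered 3 in Pms2, 2 in Apex1, 1 in Msh6 and 0 in Ung and Polh, and 37.4% of windows hold at least 1. Both strands were searched, no match in these windows overlapped another, and the motifs were chosen after the windows had been read. A match is a description of the letters and not a bound site. Exo1 and Apex2 have no window here.

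At 12 h DECP cells held 3.48-fold more Apex1 than DECN cells. Apex1 encodes the main apurinic endonuclease, which cuts the strand at an abasic site. It stood at 126, 110 and 169 TPM in DECP cells and at 29.5, 40.3 and 46.6 TPM in DECN cells. Every DECP library lay above every DECN library, where 26.3% of all genes tested had groups apart in either direction. The means of Apex1 were 135 ± 30.7 and 38.8 ± 8.63 TPM (SD, n = 3 each). The log2 change was 1.78 (SE 0.26, limma adjusted p = 0.0218). This was the 1 call among the 7 genes, in a comparison where 2.89% of all genes tested passed and 1.84% rose. The call rested on all 6 libraries. Without any 1 of them the adjusted p lay between 0.0552 and 0.0874, while the log2 change stayed between 1.60 and 1.92. Calls over all genes tested also fell, from 388 to between 0 and 91, so the loss was not particular to Apex1. Apex1 also missed the threshold with no filter on low genes (adjusted p = 0.0657). In the authors' deposited table, whose change runs as DECN over DECP, it was -1.71 (SE 0.29, adjusted p = 6.88e-07), with 10.7% of genes called.

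Apex1 (ENSMUSG00000035960) lies at 50924968 to 50927139 on chromosome 14 of GRCm38. This span, introns included, shares 1072 bases with that of Pip4p1 (listed as Tmem55b) on the other strand, and the library kit does not mark strand. Pip4p1 stood at 26.5 to 83.8 TPM in DECP cells and 58.4 to 65.4 TPM in DECN cells at 12 h, so its groups overlapped.

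**Figure D1:**
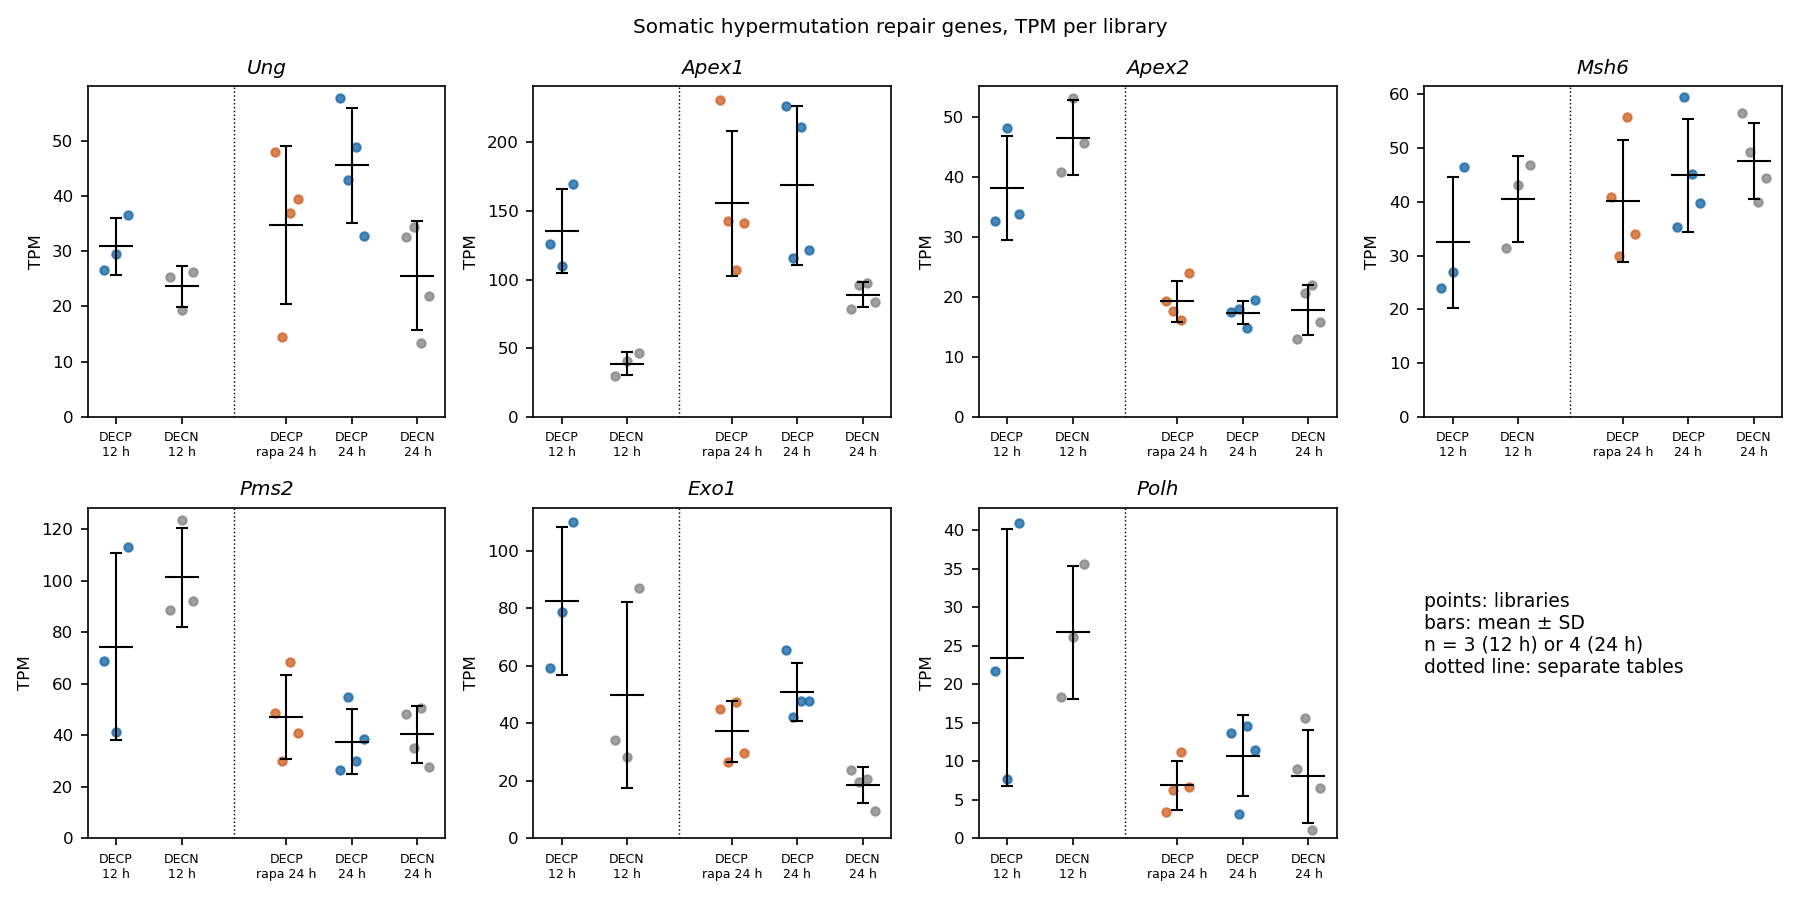
TPM of each of the 7 repair genes in every library, by group, with bars for the mean and SD (n = 3 at 12 h, n = 4 at 24 h); the tables left and right of the dotted line were normalized apart. At 12 h all 3 DECP libraries of Apex1 and, narrowly, of Ung stand above all 3 DECN libraries. At 24 h the same holds for all 4 DECP libraries of Apex1 and of Exo1. Among all genes tested, 26.3% at 12 h and 11.5% at 24 h had DECP and DECN groups apart in either direction.

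The other 2 enzymes of the base excision branch did not pass the test at 12 h. Ung had 26.5, 29.5 and 36.5 TPM in DECP cells and 25.3, 19.4 and 26.3 TPM in DECN cells. Its groups were just apart, a property shared by 26.3% of all genes tested, and its log2 change was 0.37 (SE 0.25, adjusted p = 0.465). Apex2, a nuclease related to Apex1 with weaker endonuclease activity, had 32.7, 48.3 and 33.8 TPM in DECP cells and 40.8, 53.2 and 45.7 TPM in DECN cells. These overlapped, with a log2 change of -0.29 (SE 0.24, 95% interval -0.85 to 0.27, adjusted p = 0.565). The ratio of Apex1 to Apex2 within a library was 3.72 ± 1.37 in DECP cells and 0.833 ± 0.161 in DECN cells (SD, n = 3 each), and the ranges, 2.28 to 5.01 and 0.723 to 1.02, did not meet. This ratio holds the Apex1 difference given above, so it is not a separate result. The span of Apex2 on chromosome X, introns included, overlaps those of Alas2 and Pfkfb1 on the other strand. Whether their exons overlap, and so whether Apex2 values include reads of either, was not tested. Alas2, an enzyme of haem synthesis, stood at 15.4 to 26.5 TPM in DECP cells and 0 to 27.4 TPM in DECN cells at 12 h.

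The 4 genes of the mismatch branch did not pass the test at 12 h, and their groups overlapped. Exo1 had 59.1, 78.7 and 110.1 TPM in DECP cells and 34.1, 28.4 and 87.1 TPM in DECN cells. The DECN library at 87.1 TPM exceeded 2 of the 3 DECP libraries, and the log2 change was 0.85 (SE 0.44, adjusted p = 0.342). Msh6 averaged 32.5 ± 12.2 TPM in DECP cells and 40.5 ± 8.05 TPM in DECN cells (SD, n = 3 each; log2 change -0.35, adjusted p = 0.601). Pms2 averaged 74.4 ± 36.2 TPM in DECP cells and 101 ± 19.2 TPM in DECN cells, with a log2 change of -0.54 (95% interval -1.39 to 0.31, adjusted p = 0.466). Polh had 21.7, 7.67 and 41.0 TPM in DECP cells and 18.4, 26.2 and 35.7 TPM in DECN cells, and a 95% interval of -1.73 to 0.91 around its log2 change of -0.41, the widest interval of the 7.

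At 24 h DECP cells held 2.76-fold more Exo1 than DECN cells. Exo1 is the 5′ to 3′ exonuclease that removes the stretch holding the mismatch. It stood at 65.5, 42.3, 47.8 and 47.9 TPM in DECP cells and at 23.9, 19.7, 20.8 and 9.45 TPM in DECN cells. The lowest DECP library was above the highest DECN library, where 11.5% of all genes tested had groups apart in either direction. The means of Exo1 were 50.9 ± 10.1 and 18.4 ± 6.25 TPM (SD, n = 4 each). The log2 change was 1.47 (SE 0.29, limma adjusted p = 0.0131), the 1 call among the 7 genes where 4.04% of all genes tested passed and 2.72% rose. It passed without each of the 12 libraries in turn (adjusted p 0.0131 to 0.0481). The 24 h libraries carried 1 of 2 second index sequences, per the labels. Within the libraries of either one, 2 a group, the log2 change of Exo1 was 1.11 and 1.83, with adjusted p = 0.189 and 0.33. With so few libraries a missed threshold says little about Exo1. Dut, described below, also missed it within either index (limma adjusted p = 0.14 and 0.299). In the authors' deposited table, as DECN over DECP, Exo1 stood at -1.26 (SE 0.27, adjusted p = 0.00016), with 9.1% of genes called. Exo1 (ENSMUSG00000039748) lies at 175880581 to 175913489 on chromosome 1, forward strand.

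**Figure D2:**
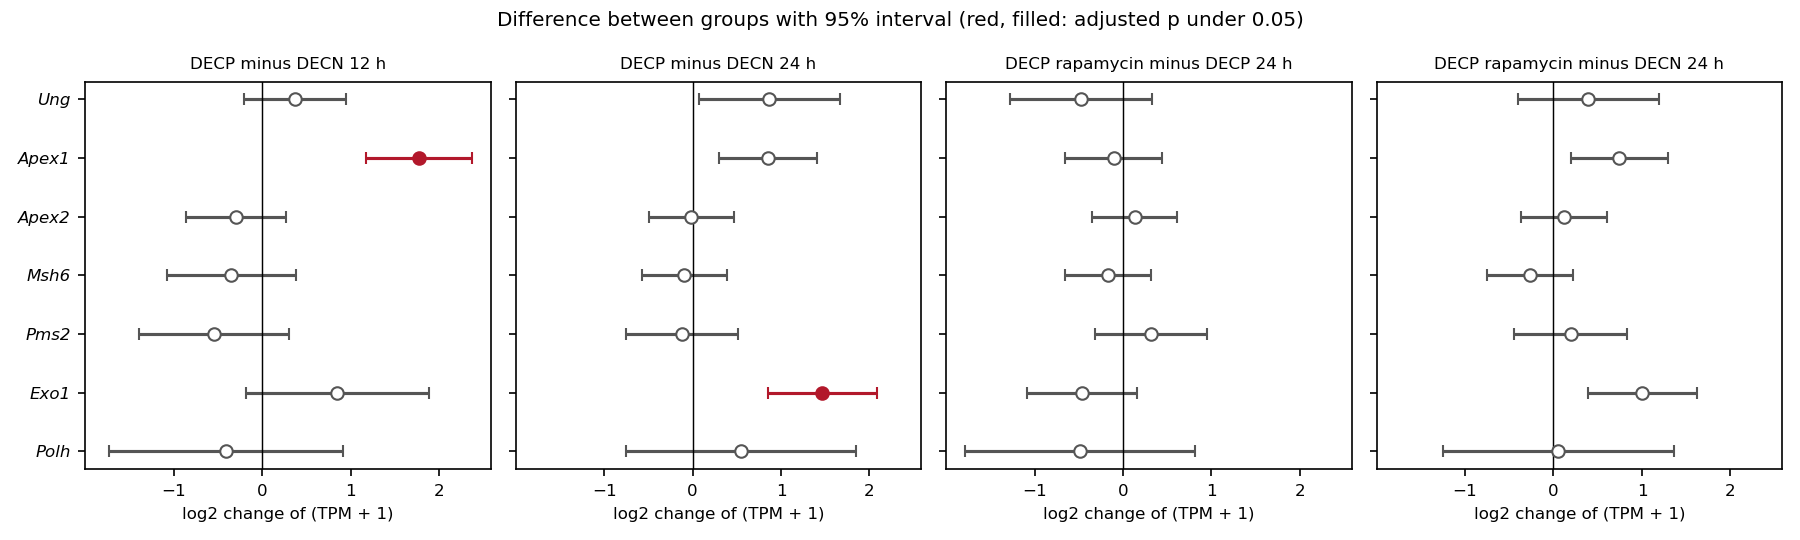
Log2 change of TPM + 1 between groups for the 7 repair genes in 4 comparisons, with 95% intervals from limma; filled red points passed an adjusted p of 0.05. Apex1 at 12 h (1.78) and Exo1 at 24 h (1.47) are the 2 filled points.

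Apex1 at 24 h did not pass the threshold, although its groups did not overlap, which held for 11.5% of all genes tested. It had 226, 116, 211 and 121 TPM in DECP cells and 78.9, 96.4, 97.2 and 84.0 TPM in DECN cells. The DECP libraries fell into a high and a low pair, while the DECN libraries lay close together. The log2 change was 0.85 (SE 0.26, limma adjusted p = 0.088), and it was 0.83 and 0.87 within the libraries of either second index. In the authors' deposited table, as DECN over DECP, it was -0.80 (adjusted p = 0.0322). Pip4p1, which overlaps it, averaged 77.7 TPM in DECP cells and 116 TPM in DECN cells.

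Ung at 24 h had 57.7, 42.9, 48.8 and 32.8 TPM in DECP cells and 32.6, 34.4, 13.3 and 21.9 TPM in DECN cells. The lowest DECP library lay under the highest DECN library, and the log2 change of 0.87 (SE 0.37, unadjusted p = 0.0354 in limma) missed the threshold after adjustment (0.237). Ung, Apex1 and Exo1 were thus the 3 genes with an unadjusted p under 0.05, a share to be read beside the 17.7% of all genes tested that had one. Apex2 averaged 17.4 ± 1.95 TPM in DECP cells and 17.9 ± 4.21 TPM in DECN cells (SD, n = 4 each) with a 95% interval of -0.49 to 0.47 for the log2 change. Msh6 (log2 change -0.09, interval -0.58 to 0.39) and Pms2 (-0.12, interval -0.75 to 0.52) also overlapped. Polh was the lowest of the 7 in each 24 h group, with 13.7, 3.10, 14.6 and 11.5 TPM in DECP cells and 8.998, 15.6, 1.08 and 6.50 TPM in DECN cells, and its interval of -0.76 to 1.84 was the widest.

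The test of whether the DECP to DECN difference changed between the times called 0 of the 7 genes, where 0.852% of 11848 genes passed. Apex1 had the smallest p, with a difference of -0.92 on the log2 scale (SE 0.38, limma unadjusted p = 0.0274, adjusted p = 0.363). For Exo1 the difference was 0.62 (SE 0.52, adjusted p = 0.745). A call at one time and none at the other is therefore not shown to be a difference between the times. The times were separate tables, so time and table cannot be told apart.

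Rapamycin-treated DECP cells did not differ past the threshold from untreated DECP cells in any of the 7 genes by limma, where 2.18% of all genes tested passed, and 0 had an unadjusted p under 0.05, as 13.9% of all genes tested did. In the authors' deposited table the adjusted p of the 7 lay between 0.384 for Exo1 and 0.826 for Apex1. Exo1 had 45.1, 26.7, 47.6 and 29.8 TPM with rapamycin, against the 42.3 to 65.5 TPM of untreated DECP cells. The ranges overlapped, and the log2 change was -0.46 with a 95% interval of -1.08 to 0.16, which includes a fall of more than 2-fold. Apex1 had 231, 143, 107 and 141 TPM with rapamycin, and its log2 change of -0.11 had an interval of -0.66 to 0.45. Ung had 47.9, 14.4, 36.9 and 39.5 TPM, with 1 library far below the other 3 (log2 change -0.48, interval -1.27 to 0.32).

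Against DECN cells, rapamycin-treated DECP cells also gave 0 calls among the 7, with 1.31% of all genes tested called. Exo1 (log2 change 1.01, SE 0.29, limma adjusted p = 0.126) and Apex1 (0.75, SE 0.26, limma adjusted p = 0.216) had an unadjusted p under 0.05, as 13.3% of genes did. For both, every treated library lay above every DECN library; 8.57% of genes had groups that did not overlap in either direction. In the authors' deposited table, as DECN over rapamycin-treated DECP, Exo1 stood at -0.83 with an adjusted p = 0.0458, where 4.38% of genes were called. These comparisons share the DECP or DECN libraries of the 24 h table.

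By mean level within a group, Apex1 was the highest of the 7 in DECP cells at 12 h and in all 3 groups at 24 h. At 24 h its range lay above those of the other 6 genes, while in DECP cells at 12 h its lowest library (110.2 TPM) lay under the highest of Pms2 (113.0 TPM). In DECN cells at 12 h it ranked 5 of 7, with Pms2 the highest at 101 ± 19.2 TPM (SD, n = 3). Most other neighbours in the order overlapped. At 24 h Apex1 exceeded Apex2 within each library, by 8.14 ± 2.72 times with rapamycin, 9.98 ± 4.23 times in DECP cells and 5.12 ± 0.744 times in DECN cells (SD, n = 4 each).

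The genes most like each member were taken by the mean of the correlations within the 6 libraries of 12 h and the 12 of 24 h, which share group differences and scaling. They are the highest among 5609 genes searched (5610 for Polh), and so many tries over few libraries can yield high values. Apex1 was most like Nhp2, a protein of small nucleolar ribonucleoproteins (mean r 0.93), Guk1, guanylate kinase (0.91), and Eef1g, an elongation factor subunit (0.91). Exo1 was most like Cbx5, a heterochromatin protein (0.91), the chaperone Hsp90ab1 (0.91) and Mcm6, a subunit of the replicative helicase (0.88). Ung was most like Glo1 (0.89), Eif3l (0.88) and Ruvbl2 (0.87). The closest partners of the other members had lower values, between 0.76 for Pik3r1 with Apex2 and 0.88 for Usp33 with Pms2. Between the members themselves, Ung and Exo1 had r = 0.86 at 12 h and 0.66 at 24 h, and Exo1 and Apex1 had 0.73 and 0.71. Some other pairs changed sign between the times. Polh and Pms2 had 0.868 and -0.417, and Apex1 and Apex2 had -0.595 and 0.118.

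Genes of the cell cycle also differed at 24 h. Of 20 S phase genes 4 rose in DECP over DECN cells and 0 fell, with a median log2 change of 0.47, and of 18 G2/M genes 6 rose and 0 fell, with a median of 0.96. Over all genes tested 2.72% rose and the median was 0.00. The summed S phase level was 1521 to 2082 TPM with rapamycin, 2326 to 2526 TPM in DECP cells and 1622 to 1712 TPM in DECN cells. The part of cell cycle state in the Exo1 difference was not tested. At 12 h 0 of the 20 and 0 of the 18 passed in limma. At an unadjusted p under 0.05, 4 and 3 were higher and 0 were lower. Over all 13429 genes tested 1452 were higher and 1221 lower at that level, together 19.9%. The median log2 change at 12 h was 0.19 for S phase and 0.39 for G2/M genes, against -0.05 over all genes tested. With rapamycin, 2 of 20 S phase and 4 of 18 G2/M genes fell relative to untreated DECP cells, with medians of -0.32 and -0.84, where 1.53% of all genes tested fell and the median was 0.02.

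**Figure D3:**
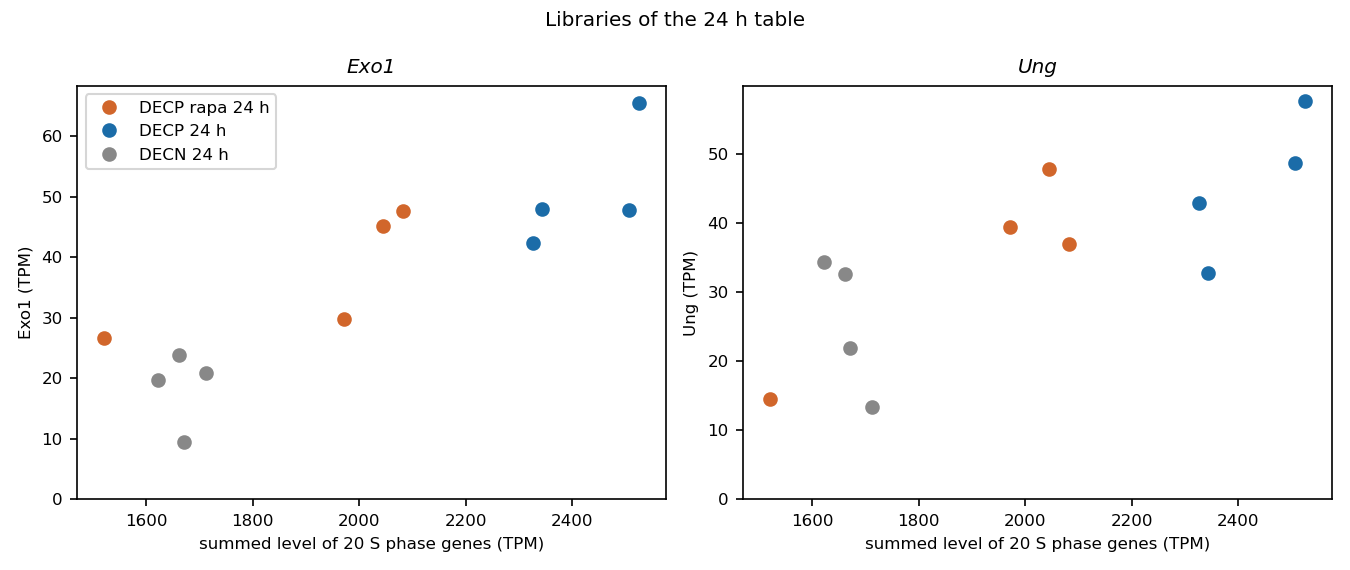
TPM of Exo1 (left) and Ung (right) against the summed TPM of 20 S phase genes in the 12 libraries of the 24 h table, coloured by group. The 4 DECP libraries lie at 2326 TPM or more on the horizontal axis, the 4 DECN libraries at 1712 TPM or less, and the rapamycin-treated libraries between 1521 and 2082 TPM.

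Among 95 other genes of the pathway, 93 were tested at 24 h, and 4 rose and 1 fell in DECP over DECN cells, a share near the 4.04% of all genes tested. Dut, the dUTPase that keeps uracil out of DNA, stood at 501 ± 50.1 TPM in DECP cells and 280 ± 27.5 TPM in DECN cells (SD, n = 4 each; log2 change 0.84, limma adjusted p = 0.00366). Pcna, the sliding clamp that recruits polymerase eta, rose by 0.56 (adjusted p = 0.0137), and Xpo1, a nuclear export receptor, by 0.66 (adjusted p = 0.0149). Polq, a polymerase of end joining, stood at 10.1 ± 4.88 TPM in DECP cells and 2.79 ± 2.03 TPM in DECN cells (log2 change 1.60, adjusted p = 0.0376). Mbd4, a glycosylase that removes uracil and thymine from mismatches with guanine, averaged 69.7 ± 14.3 TPM in DECP cells and 120 ± 18.5 TPM in DECN cells (-0.79, adjusted p = 0.0411). When each of the 12 libraries was left out in turn, Polq missed the threshold 10 times (adjusted p up to 0.0985) and Mbd4 8 times (up to 0.118). With quantile normalization Pcna (0.38, adjusted p = 0.0921) and Xpo1 (0.45, adjusted p = 0.0911) missed it, and with no trend Pcna, Xpo1, Polq and Mbd4 did (adjusted p 0.105, 0.089, 0.0551 and 0.0932). The 93 genes tested had a median log2 change of 0.21.

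By list at 24 h, 1 of 22 tested genes of uracil and base excision repair rose and 1 fell, and 1 of 19 in mismatch repair and resynthesis rose. In translesion synthesis 1 of 15 rose, and among the cofactors of hypermutation targeting 1 of 16 rose. Of 21 class switch end joining genes 0 passed, with 3 at an unadjusted p under 0.05 by limma, as had 17.7% of all genes tested. At that level the other lists, in the order above, had 2 higher and 3 lower, 6 and 1, 3 and 0, and 4 and 0. Together the 5 lists had 18 higher and 4 lower of 93. At 12 h, 1 of 92 passed, where 2.89% of all genes tested did. Rev1, a deoxycytidyl transferase of translesion synthesis, averaged 112 ± 19.4 TPM in DECP cells and 228 ± 14.6 TPM in DECN cells (SD, n = 3 each; log2 change -1.03, SE 0.19, limma adjusted p = 0.0374). Without any 1 of the 6 libraries its adjusted p lay between 0.0608 and 0.146. Calls over all genes tested then also fell, to between 0 and 91. Next by p were Exosc3, an RNA exosome subunit (0.89, adjusted p = 0.0628), and Rpa3, a subunit of the single-strand binding protein RPA (1.06, adjusted p = 0.0761).

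**Figure D4:**
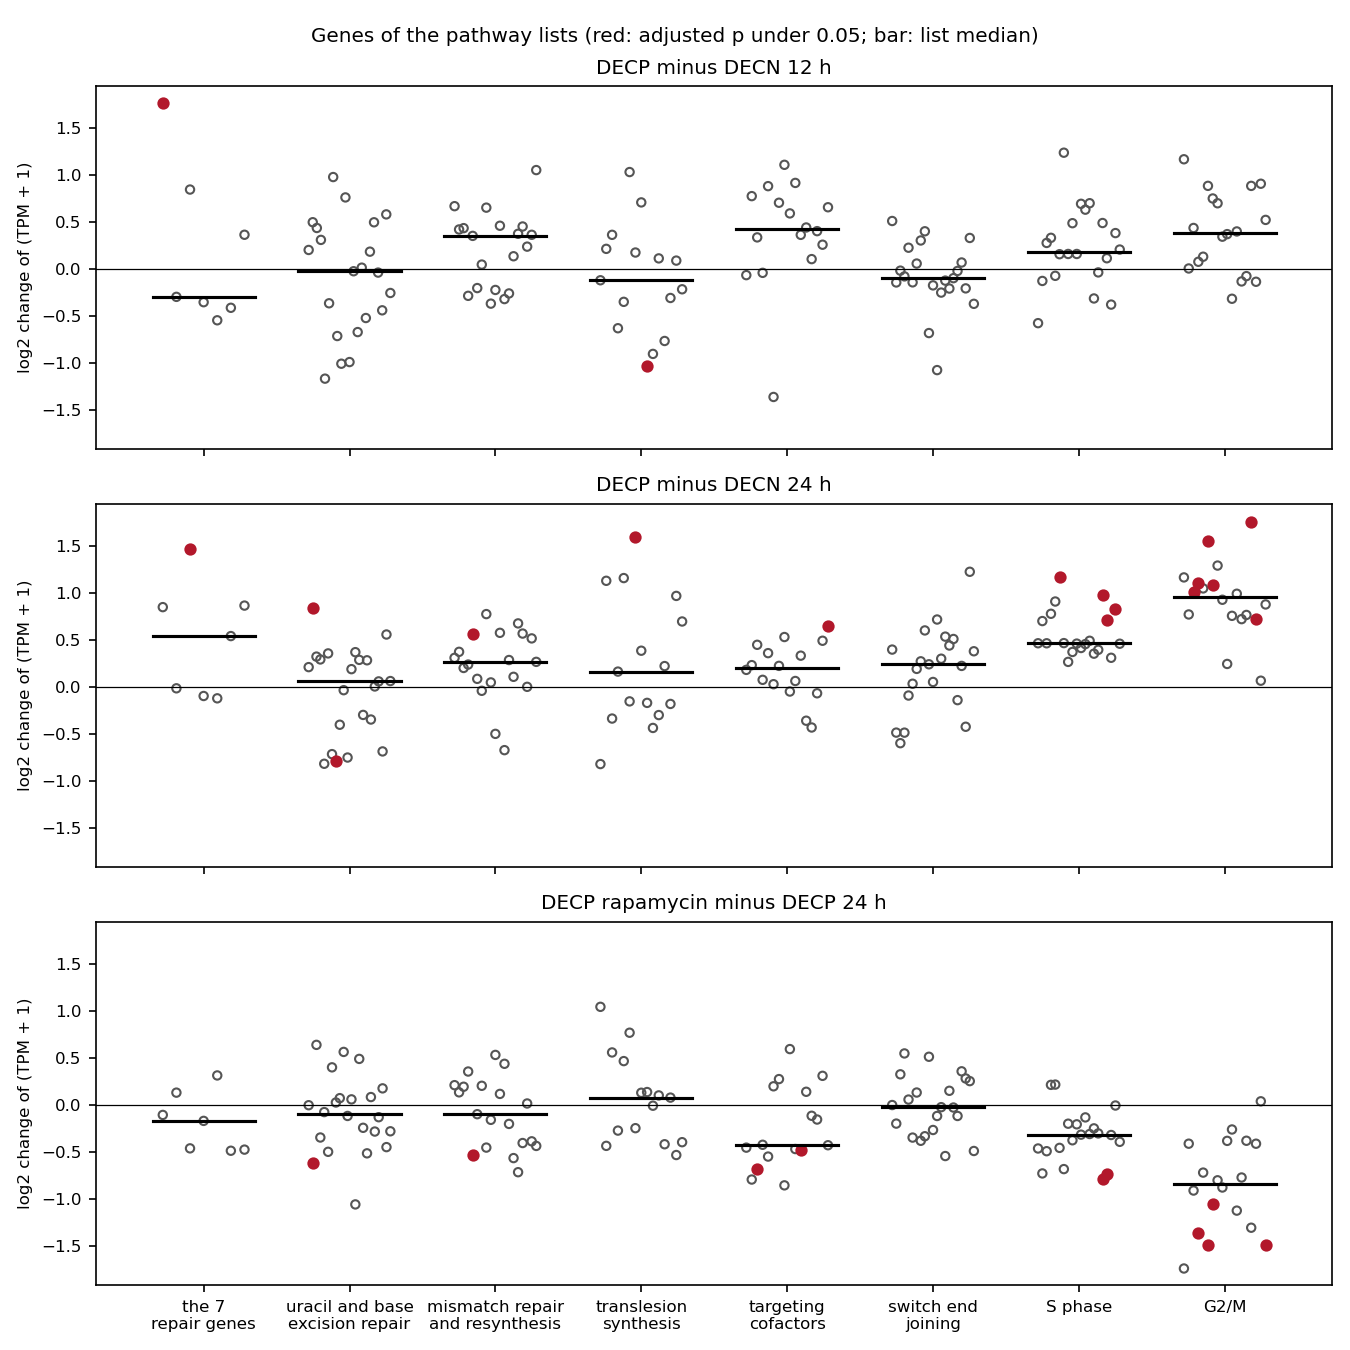
Log2 change of TPM + 1 for each tested gene of the 7 repair genes, the 5 pathway lists and the S phase and G2/M lists, in 3 comparisons; red points passed an adjusted p of 0.05 and bars are list medians. At 24 h 4 S phase and 6 G2/M genes are red above 0 in DECP over DECN, and 2 and 4 are red below 0 in rapamycin-treated over untreated DECP.

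With rapamycin, 4 of 93 pathway genes fell and 0 rose relative to untreated DECP cells, where 2.18% of all genes tested passed and 1.53% fell. Dnaja1, a chaperone of the DnaJ family, averaged 308 ± 29.5 TPM with rapamycin and 494 ± 53.6 TPM without (SD, n = 4 each; log2 change -0.68, limma adjusted p = 0.0173). Srsf3, a splicing factor, changed by -0.48 (adjusted p = 0.0173), Pcna by -0.53 (adjusted p = 0.0264) and Dut by -0.62 (adjusted p = 0.0283). When each of the 12 libraries was left out, Pcna and Dut missed the threshold 6 times each (adjusted p up to 0.081 and 0.0844), Dnaja1 missed it without DECP replicate 1 (0.051) and Srsf3 without rapamycin-treated DECP replicate 4 (0.053). With quantile normalization Dnaja1 (-0.45, adjusted p = 0.129), Pcna (-0.31, adjusted p = 0.28) and Dut (-0.37, adjusted p = 0.218) missed it, and with no trend all 4 genes did (adjusted p 0.153 to 0.224). Relative to DECN cells, 0 of 93 pathway genes passed in rapamycin-treated DECP cells by limma, with 10 higher and 5 lower at an unadjusted p under 0.05, a share near the 13.3% of all genes tested. The smallest p were those of Hmces, which protects abasic sites in single-stranded DNA (log2 change -0.89, adjusted p = 0.0692), Neil1, a glycosylase of oxidised bases (-0.87, adjusted p = 0.0708), and Mbd4 (-0.76, adjusted p = 0.084). For the difference between the times 0 of 92 pathway genes passed in limma, and 8 were higher and 4 lower at an unadjusted p under 0.05, a share near the 11% of all genes tested. The smallest p were those of Prkdc (1.79, adjusted p = 0.207), Rpa3 (-0.79, adjusted p = 0.24) and Xrcc6 (0.75, adjusted p = 0.263).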

How the data were processed

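The members and gene lists were chosen with earlier results of these data known. The authors deposited, per the file headers, a score of TPM plus 1 per gene and library in 2 tables (6 and 12 libraries), and 1 was subtracted. Reads were quantified with kallisto 0.43.0 on GRCm38, per the submitters' processing notes. Their own group comparisons, likewise deposited, give per the file headers mean normalized counts (a signal), log2 fold changes and adjusted p-values. No source used here names the software behind them. Libraries were grouped by title. Per the labels' protocols Nextera XT was used, and 6 conditions in 3 replicates are named, whereas 5 groups of 3 or 4 libraries are analysed here.

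Within each table, limma 3.58.1 (R 4.3.3) with an intensity trend was fitted to log2(TPM + 1), keeping genes that reached a TPM of 1 in 3 or more libraries (12 h) or 4 or more (24 h). Two-sided p-values were adjusted by Benjamini-Hochberg over all genes tested, with a threshold of 0.05. This scale understates changes of low genes. The difference between the times used all 18 libraries. All 7 members are named, as is each pathway gene past the threshold or, with fewer than 3, the 3 smallest p. Of the pathway lists 1 gene is not reported here, and the list counts leave it out. For likeness, 3 genes per member were taken, with a mean TPM of at least 10. For Pold4, listed under a pair of IDs with equal values, the ID named in GENCODE M21 was kept, a choice made after seeing the data. Positions are from GENCODE M21 (30123 of 30452 IDs found) and promoter windows from RefSeq. Alternatives covered the pseudocount, the filter, scaling, array weights, the trend, the second index, the replicate block, a fit to the compared groups alone and leaving out single libraries. The fit was tested on simulated data, and plots were drawn in Python 3.11.15 with matplotlib 3.10.9. Libraries with the same replicate number were not treated as pairs in the fit reported. Correlations of same-numbered deviations over all genes tested were -0.0571 to 0.0918. With 3 or 4 libraries a group these cannot exclude a pairing.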

Additional observations from a re-analysis of the deposited data

How the results depend on the processing

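Among the 7 repair genes the count called for DECP over DECN was 1 at each time. At 12 h it was 0 with no filter, with the replicate block and without each library in turn (0 to 0). At 24 h it was 0 within either second index, a setting added after seeing the data. That split leaves 2 libraries a group, so a missed threshold there says little about a gene. Under the other settings run the member counts were unchanged. The pathway count for DECP over DECN at 12 h (1) was 0 with no filter, no trend or the replicate block and without each library, and 2 with a filter at TPM 5. At 24 h (5) it was 3 with no filter, 10 with the filter at TPM 5, 1 with no trend, 8 with only the groups compared, 0 within either index and 3 to 7 without a library. For rapamycin over DECP (4) it was 1 with quantile normalization or the replicate block, 2 with only the groups compared, 0 with no trend or within either index, and 1 to 4 without a library. For rapamycin over DECN (0) it was 2 with the filter at TPM 5, 1 with array weights and 0 to 2 without a library. For the difference between the times it was 0 to 1. The cause of these moves was not tested. Calls over all genes also varied, from 0 to 595 at 12 h (388 in the fit reported) and from 0 to 624 at 24 h (517). Leaving out 1 library gave 0 to 91 at 12 h and 273 to 542 at 24 h for DECP over DECN.

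Whether replicate numbers pair the libraries is not known. With the replicate block the adjusted p was 0.0671 for Apex1 at 12 h, 0.0827 for Rev1 and 0.0132 for Exo1 at 24 h, and Mbd4 (0.0709) at 24 h no longer passed. For rapamycin over DECP, Dnaja1 (0.0594), Pcna (0.0724) and Dut (0.0609) no longer passed with the block.

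Directions turned only for differences that did not pass. For DECP over DECN at 24 h, Apex2 (-0.01) became 0.0041 with quantile normalization, 0.019 with median centring, 0.048 with array weights and 0.046 within an index, Msh6 became 0.12 and Pms2 0.025 within the other index. Without a library Apex2 ranged from -0.15 to 0.093, Msh6 from -0.24 to 0.0094, Pms2 from -0.32 to 0.027 and Polh from -0.049 to 0.99, and Polh at 12 h from -0.94 to 0.20. For rapamycin over DECP, Apex1 became 0.12 with quantile normalization and 0.16 within an index, and ranged from -0.31 to 0.056 without a library, and Msh6 became 0.042 within an index. For rapamycin over DECN, Polh became -0.0415 with a pseudocount of 5, -0.0033 with quantile normalization, -0.14 with array weights and -0.41 within an index, and ranged from -0.54 to 0.46 without a library. There Apex2 became -0.014 within an index and ranged from -0.016 to 0.22, and Pms2 from -0.0034 to 0.39. Depth is unknown, which limits what a missed threshold shows.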
